A study of Rattus norvegicus with 6 samples.

Results

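Glutamate receptors and the auxiliary subunits that travel with them were followed in the hippocampus of Sprague-Dawley rats exposed to B[a]P (benzo[a]pyrene), a polycyclic hydrocarbon of soot and grilled food. The members were 36 genes taken by symbol: 4 AMPA receptor subunits, 5 kainate receptor subunits, 7 NMDA receptor subunits, 1 delta receptor subunit, 7 metabotropic receptors, 10 AMPA receptor auxiliary subunits and 2 kainate receptor auxiliary subunits. All 36 were found among the 35362 symbols of the mRNA table, on 1 line each. The B[a]P library, called the treated library below, came from hippocampus of Sprague-Dawley rats dosed daily by oral gavage with 2.0 mg/kg B[a]P dissolved in corn oil, and the control library from hippocampus of Sprague-Dawley rats gavaged with the same volume of corn oil. The labels give 7 weeks of gavage and an age of 7 weeks for both, with no word on when in the dosing that age fell, and they do not say how many animals made up a library or give their sex. Of the 6 libraries of the series, the 2 RNA-seq libraries were used, 1 per condition. No difference below therefore has a replicate check: every value compares 2 libraries, not the treatments, and no p-value was computed.

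Glutamate is the main excitatory transmitter of the hippocampus. AMPA and kainate receptors are cation channels that carry fast excitatory currents. NMDA receptors are calcium-permeable channels that open when glutamate binds while the membrane is depolarised, and they trigger long-term synaptic plasticity. Metabotropic receptors act through G proteins, many of them as presynaptic brakes on release. Auxiliary subunits such as the transmembrane AMPA receptor regulatory proteins (TARPs), cornichons and Neto proteins set the trafficking and gating of the channels they bind.

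The 2 libraries held the receptor genes at closely similar levels. Levels are given as FPKM, a unit scaled to transcript length and library size that was inferred from the values and is stated by no label, so the order of levels between genes rests on that inference. A floor of 1 FPKM in either library was passed by 34 members, of which 32 passed in both libraries. Grin2d and Grm6 stayed under it in both. Grin3b and Grm4 passed through the control library only, so they had to be lower in the treated library. On the scale of log2(FPKM + 1), 29 of the 34 were higher and 5 lower in the treated library, and 29 differed by less than 1.2-fold. At least 1.2-fold higher were 5 members (Grm2, Cacng4, Grm3, Grm7 and Grik1), against 8.40% of the 13261 genes at the floor. With each library scaled to its own median or upper quartile, 2 of the 5, Grm2 and Cacng4, were still at least 1.2-fold higher. The shares of all genes at the floor were then 3.85% and 3.89%. No member was at least 1.2-fold lower, against 3.67% of genes. At least 1.5-fold higher was Grm2 alone, against 0.603% of genes. No member was at least 1.5-fold lower (1.18% of genes), at least 2-fold higher (0.151%) or at least 2-fold lower (0.520%).

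The table as a whole was not centred on 0. The median log2 ratio of all genes at the floor was 0.09, and that of the 34 members was 0.14. Above the median of all genes lay 20 members, or 58.8%, against 50.0% of genes. With a floor of 5 FPKM it was 18 of 25, and with no floor, where the median of all genes was 0.0050, it was 30 of 36. The 29 that were higher must be read with 9885 of all 13261 genes higher as well. When each library was scaled to its own median, 20 members were higher and 14 lower: Grik3, Grin1, Grin2a, Grm8, Cacng2, Cacng7, Cnih2, Cnih3 and Gsg1l changed sign.

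Promoter sequence is shown for 3 of the members with a RefSeq window: Grm7 and Grik1, which had the highest log2 ratios among them (0.31 and 0.29, and 0.22 each with median centring, under 1.2-fold), and Grin3a, which had the lowest log2 ratio among those that passed the floor in both libraries. Each is the window from 250 bases before to 50 bases after the RefSeq gene start, on build GRCr8, written 5′ to 3′ on the gene's strand. Capitals mark the core of the dioxin response element, GCGTG, or its reverse complement, CACGC. B[a]P is a ligand of the aryl hydrocarbon receptor, which binds this core together with its partner Arnt.
Grm7, chr4:145286476-145286775, + strand: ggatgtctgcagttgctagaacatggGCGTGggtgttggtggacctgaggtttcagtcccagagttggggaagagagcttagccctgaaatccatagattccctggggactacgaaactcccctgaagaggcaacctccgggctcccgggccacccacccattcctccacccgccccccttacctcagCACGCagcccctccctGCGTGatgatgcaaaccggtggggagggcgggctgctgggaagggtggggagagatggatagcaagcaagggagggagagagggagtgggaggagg
Grik1, chr11:41056454-41056753, - strand: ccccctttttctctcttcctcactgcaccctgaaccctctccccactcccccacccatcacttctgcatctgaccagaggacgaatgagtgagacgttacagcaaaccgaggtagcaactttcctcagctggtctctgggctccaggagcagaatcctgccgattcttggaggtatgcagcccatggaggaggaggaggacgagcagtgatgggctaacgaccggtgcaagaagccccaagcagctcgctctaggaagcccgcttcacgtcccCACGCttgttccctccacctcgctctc
Grin3a, chr5:69001509-69001808, - strand: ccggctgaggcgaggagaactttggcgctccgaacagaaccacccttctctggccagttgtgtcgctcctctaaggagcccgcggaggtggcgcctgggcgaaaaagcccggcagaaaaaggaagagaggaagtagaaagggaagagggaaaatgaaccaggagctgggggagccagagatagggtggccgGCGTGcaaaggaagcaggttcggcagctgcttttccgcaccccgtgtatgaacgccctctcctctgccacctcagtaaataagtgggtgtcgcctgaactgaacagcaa

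The Grm7 window held 3 matches to the core, and the Grik1 and Grin3a windows held 1 each. Of the windows not shown, that of Neto2 (log2 ratio 0.11) also held 3. Those of Grin1 (0.05) and Grin2d (-0.09) held 2 each. The windows of Grik2 (0.25), Grik5 (0.22) and Grm5 (0.21) held 0. A relation between the number of matches and the log2 ratio was not tested. RefSeq promoter windows were matched for 23 of the 36 members; Grm2, Cacng4 and Grm3, with the highest ratios of all members, were among those not matched. The core was present in 11 of the 23 (47.8%), against 29.7% of all 33469 windows of 300 bases. These windows were also richer in CpG: their median was 12 CpG dinucleotides, against 7 over all windows, and their median GC content 60.3% against 51.7%. The core itself contains a CpG. Among windows with 8 to 21.5 CpGs, the middle range of the members, it was present in 40.6% of all windows and in 5 of 12 member windows (41.7%). The full cAMP response element, TGACGTCA, searched on both strands, was in 0 of the 23 windows and in 1.83% of all windows. A match is a description of the letters in the window, not evidence of binding.

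**Figure D1:**
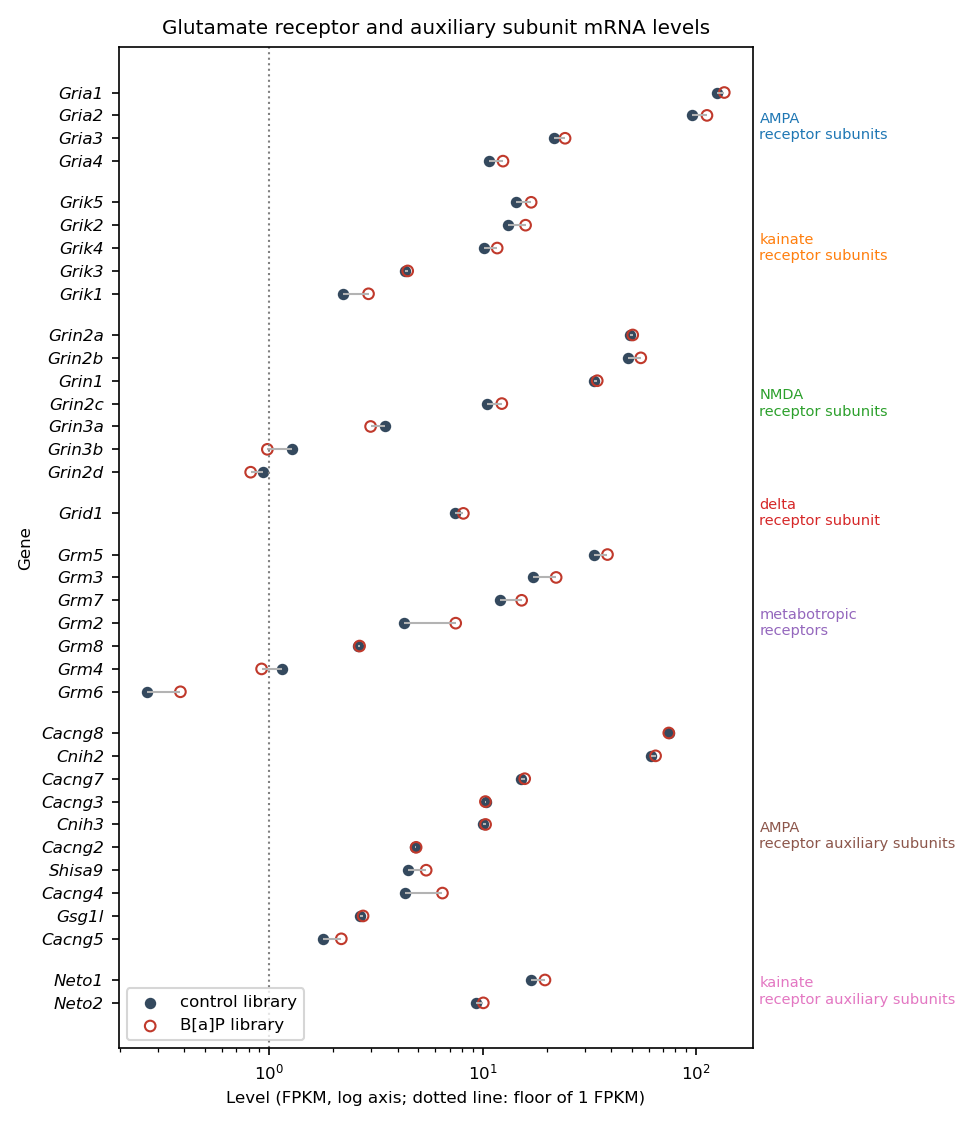
Level of each of the 36 genes in the control library (filled) and the B[a]P library (open), in FPKM on a log axis, grouped by receptor class and ordered by control level; the dotted line is the floor of 1 FPKM. Levels ran from 0.269 FPKM for Grm6 to 125 FPKM for Gria1 in the control library, and most pairs of points nearly touch, with Grm2 and Cacng4 the widest pairs among genes above the floor.

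AMPA receptor subunits were the most abundant of the receptor genes, and all 4 lay above the median of all genes. Their class median was 0.18, and none reached 1.2-fold. Gria1, which encodes the subunit whose insertion follows plasticity, was the highest member in both libraries at 135 FPKM (treated) and 125 FPKM (control). Gria2, whose edited form makes the channel impermeable to calcium, followed at 112 and 95.5 FPKM and was 1.18 times higher. Gria1 and Gria2 together made up most of the AMPA mRNA of both libraries. Gria3 was at 24.3 and 21.7 FPKM. Gria4, a subunit prominent in interneurons and early development, was at 12.4 and 10.7 FPKM. The order Gria1, Gria2, Gria3, Gria4 was the same in the 2 libraries. Gria2 took 39.5% of the summed AMPA FPKM in the treated and 37.8% in the control library, and its ratio to Gria1 was 0.830 and 0.766.

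Kainate receptor subunits had a class median of 0.22, with 4 of 5 above the median of all genes. Grik5 (16.9 against 14.3 FPKM, treated against control) and Grik4 (11.7 against 10.2 FPKM) encode the high-affinity subunits, which need a partner to form a channel. Grik2, which encodes the main partner in principal cells, was at 15.9 against 13.2 FPKM. Grik1, expressed largely by interneurons, was the lowest of the class in level and the highest in ratio: 2.92 against 2.21 FPKM, 1.32 times higher. Grik3 was at 4.45 against 4.32 FPKM, with a log2 ratio of 0.04, and was the 1 kainate subunit under the median of all genes. The high-affinity subunits together stood at 1.23 times the low-affinity subunits in the treated and 1.24 times in the control library, so the balance within the class was nearly equal in both.

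NMDA receptor subunits were spread on both sides, with a class median of 0.05 (-0.04 with median centring) and 2 of the 6 members at the floor above the median of all genes. Grin1, the subunit that every NMDA receptor contains, was at 34.4 FPKM in the treated and 33.3 FPKM in the control library. Grin2a, the mature-type glutamate-binding subunit, was at 50.5 and 48.8 FPKM. Grin2b, the subunit that dominates early in development and gives slower currents, was at 55.05 and 47.99 FPKM. Grin1 and Grin2a thus differed by 1.03 times each and Grin2b by 1.15 times. The order of Grin2a and Grin2b was exchanged between the libraries: their ratio was 0.917 in the treated and 1.02 in the control library. These neighbours lay within 1.1-fold of each other in both, and with 1 library per condition the spread of this ratio is not known. Grin2c, found in the adult forebrain partly in astrocytes, was at 12.3 and 10.5 FPKM.

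The minor NMDA subunits Grin3a, Grin3b and Grin2d were the ones lower in the treated library, but of these only Grin3a passed the floor in both libraries. Grin3a, which encodes a glycine-binding subunit that lowers calcium entry, was at 2.99 against 3.49 FPKM, with a log2 ratio of -0.17. Its relative Grin3b was at 0.980 against 1.28 FPKM, with a log2 ratio of -0.20, the lowest of all members at the floor. Grin3b passed the floor through the control library only, so its direction was fixed. Grin2d, an interneuron and early developmental subunit, was under the floor in both, at 0.819 against 0.931 FPKM. Grin3a and Grin3b summed to 0.115 of the Grin1 level in the treated and 0.143 in the control library. All 3 lay inside the central 90% of genes of their level, which ran from -0.24 to 0.33 at a mean of 2 to 5 FPKM and from -0.41 to 0.38 below 2 FPKM. Grid1, the delta receptor subunit that binds cerebellins at synapses rather than opening to glutamate, was at 8.12 against 7.44 FPKM, with a log2 ratio of 0.11.

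Metabotropic receptors held the largest difference, that of Grm2, and had a class median of 0.26 (0.21 over all 7 genes with no floor, where the kainate median was 0.22), with 4 of the 6 genes at the floor above the median of all genes and 3 at least 1.2-fold higher. Under median centring and upper quartile scaling 1 of the 3, Grm2, was still at least 1.2-fold higher. The shares of all genes at the floor were then 3.85% and 3.89%. Grm2, a presynaptic group II receptor that inhibits release and is typical of dentate granule cells and their mossy fibres, was at 7.48 FPKM in the treated and 4.26 FPKM in the control library, 1.75 times higher (log2 ratio 0.69). Its group II partner Grm3, expressed by neurons and astrocytes, was at 22.1 and 17.2 FPKM, 1.29 times higher (log2 ratio 0.34). Grm2 had a higher log2 ratio than 99.6% of all genes at the floor and Grm3 than 96.6%. Grm2 was 0.338 of the Grm3 level in the treated and 0.248 in the control library.

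Group III receptors, mostly presynaptic autoreceptors, were not alike. Grm7, which sits in the active zone, was at 15.2 FPKM in the treated and 12.1 FPKM in the control library, 1.26 times higher (log2 ratio 0.31). Grm8 was at 2.65 and 2.61 FPKM, almost level. Grm4, which passed the floor through the control library only and so had to be lower, was at 0.921 and 1.15 FPKM, with a log2 ratio of -0.16. Grm6, known as the receptor of retinal bipolar cells, was at 0.384 and 0.269 FPKM, the lowest member in both libraries. Grm5, a group I receptor that couples to phospholipase C on the postsynaptic side, was the most abundant metabotropic receptor at 38.4 and 33.1 FPKM, 1.16 times higher.

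**Figure D2:**
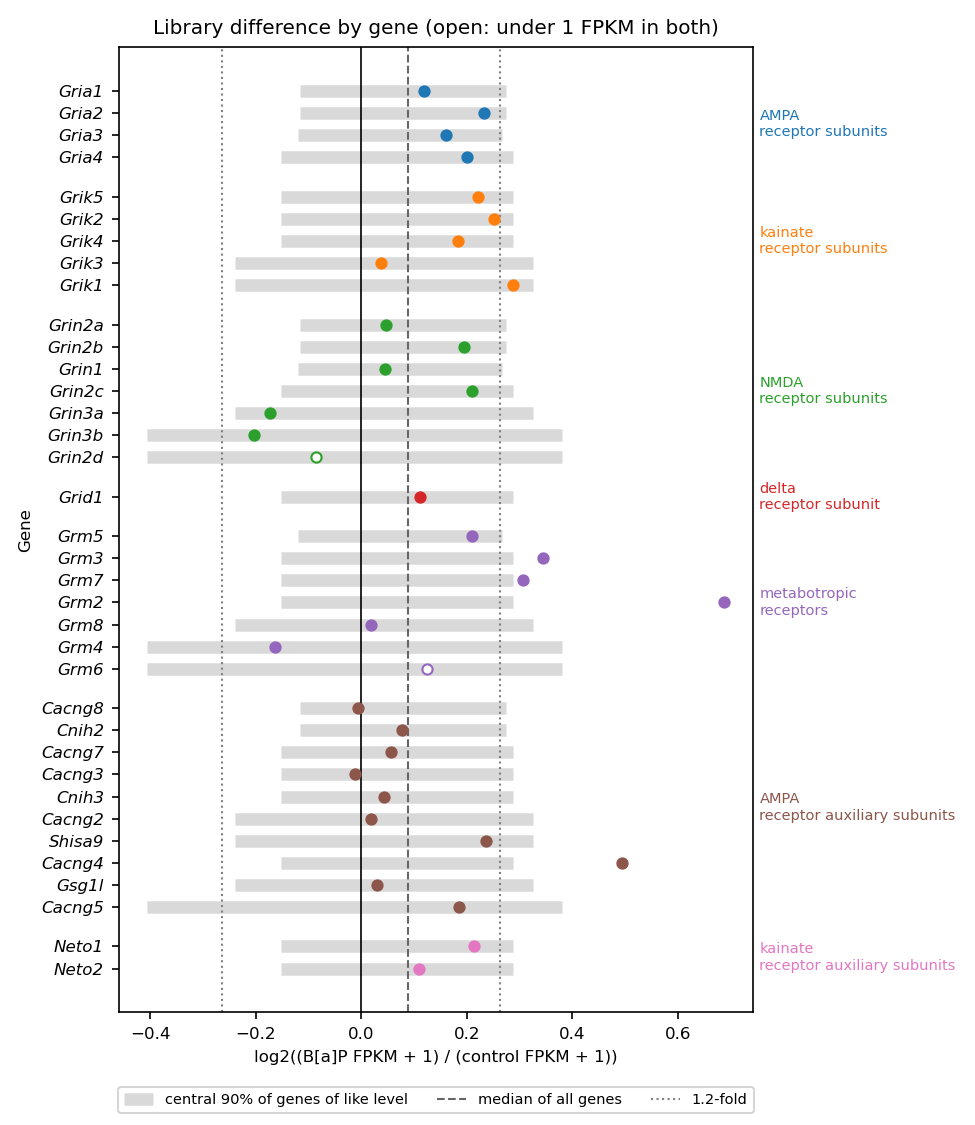
Log2 ratio (treated over control) for each gene, on the scale of log2(FPKM + 1); grey bars span the central 90% of all genes of like mean level, the dashed line is the median of all genes (0.09), the dotted lines are 1.2-fold in each direction, and open points are the genes under 1 FPKM in both libraries. Grm2, Cacng4, Grm3 and Grm7 lie to the right of their bars and no gene lies to the left.

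AMPA receptor auxiliary subunits ranged from a log2 ratio of -0.01 for Cacng3 to 0.49 for Cacng4. The class median was 0.05 (-0.03 with median centring), and 3 of 10 (Cacng4, Shisa9 and Cacng5) lay above the median of all genes. Cacng8, which encodes the main hippocampal TARP, was the third most abundant member at 74.5 FPKM in the treated and 74.8 FPKM in the control library. Cnih2, a cornichon that slows channel closing, was at 64.6 and 61.2 FPKM. Each of these abundant partners thus differed by at most 1.06 times between the libraries, while the AMPA subunits they bind summed to 285 and 253 FPKM. The TARP Cacng3 was at 10.3 and 10.4 FPKM. Cacng2, which encodes stargazin, was at 4.88 and 4.81 FPKM. The type I TARPs Cacng2, Cacng3, Cacng4 and Cacng8 summed to 0.338 of the AMPA subunit sum in the treated and 0.373 in the control library.

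Cacng4, a TARP prominent in development and in glia, had the highest ratio of the class. It was at 6.48 FPKM in the treated and 4.31 FPKM in the control library, 1.503 times higher (log2 ratio 0.49), and its log2 ratio exceeded that of 99.1% of genes. Of the type II TARPs, Cacng5 was at 2.18 and 1.79 FPKM (log2 ratio 0.18) and Cacng7 at 15.7 and 15.1 FPKM. Shisa9, which encodes an AMPA receptor partner of dentate granule cells that promotes desensitisation, was at 5.44 and 4.47 FPKM, 1.22 times higher (log2 ratio 0.24). Cnih3, the second cornichon, was at 10.3 and 9.99 FPKM. Gsg1l, which encodes a partner that restrains AMPA currents, was at 2.75 and 2.68 FPKM. Within this class Cacng4 ranked sixth by level in the treated and eighth in the control library, and Cacng2 the reverse.

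The kainate receptor auxiliary genes were both above the median of all genes. Neto1, which encodes a partner of kainate and NMDA receptors, was at 19.6 FPKM in the treated and 16.8 FPKM in the control library, 1.17 times higher. Neto2 was at 10.07 and 9.27 FPKM, 1.09 times higher. The summed level was 29.7 and 26.03 FPKM for the 2 Neto genes, and 51.8 and 44.2 FPKM for the 5 kainate subunits.

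**Figure D3:**
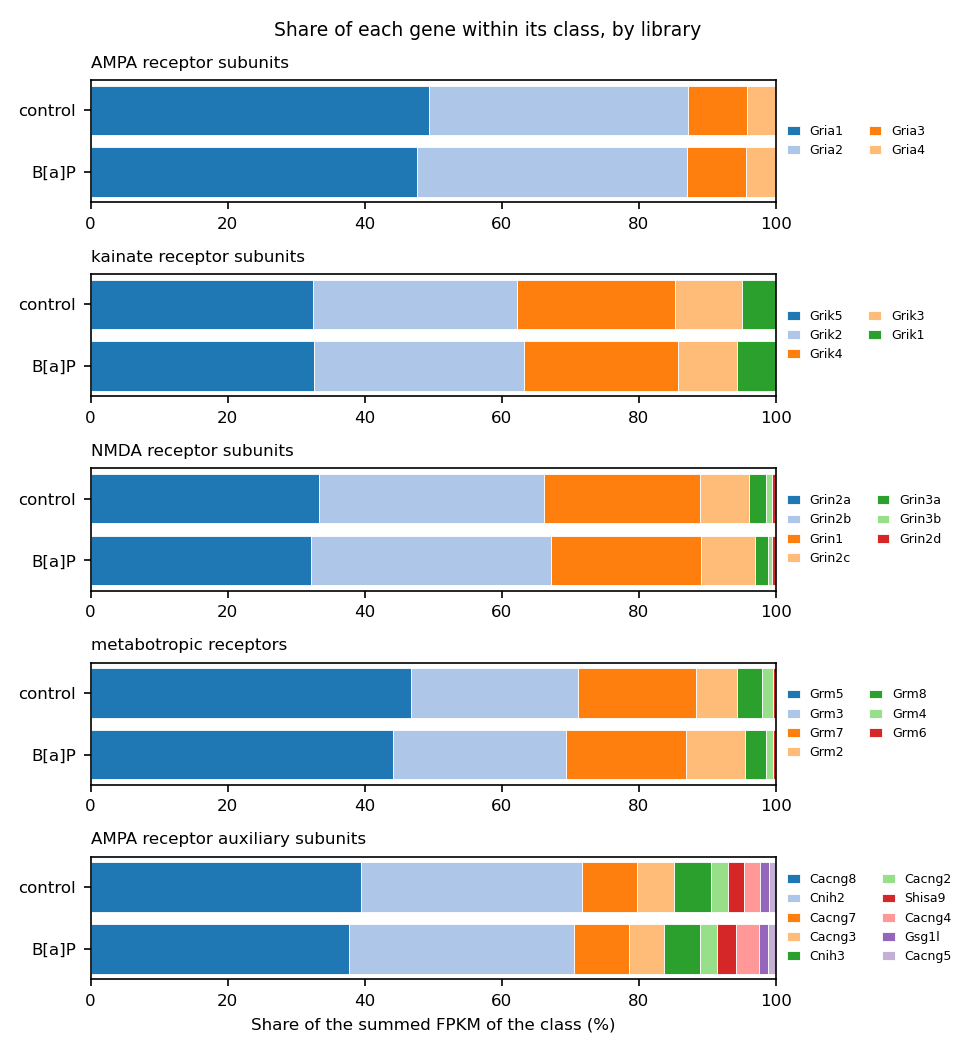
Share of each gene in the summed FPKM of its class, in percent, for each library, in the 5 classes with more than 2 genes. The bars are nearly the same in both libraries; the widest shifts are Grm5, from 46.8% in the control to 44.1% in the treated library, and Grm2, from 6.03% to 8.58%.

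The spread of ratios between the libraries was narrower among more abundant genes, so each member was also read against genes of like level. Over genes with a mean of 5 to 20 FPKM, which held 15 members, the median log2 ratio was 0.09 and the central 90% ran from -0.15 to 0.29. The 15 members had a median of 0.21, and 12 of them lay above the median of that band. Above its 95th percentile were 4 members, Grm2, Cacng4, Grm3 and Grm7, against 5.02% of genes by construction. In this band of 5360 genes, 7 others had a log2 ratio at least as high as Grm2 and 22, Grm2 included, as Cacng4. Of the members with a mean of 2 to 5 FPKM, 2 of 7 lay above the band's median (0.07), and of the 6 members at 40 FPKM or more 3 did (0.10). Over all bands 20 of the 34 were above the median for their level, and 0 were below the 5th percentile, against 5.02% of genes.

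Other genes of glutamate transmission gave medians close to that of the members. For glutamate synthesis, loading and uptake genes the median log2 ratio was 0.15: 12 of 16 exceeded the median of all genes, 2 were 1.2-fold or more higher and 0 were 1.2-fold or more lower. The 2 were the astrocyte transporter genes Slc1a2 (291 against 219 FPKM) and Slc1a3 (160 against 126 FPKM), which clear glutamate from the synapse. Both are also counted among the astrocyte markers below. At the other end were the amino acid transporter gene Slc38a2 (19.5 against 23.3 FPKM) and the vesicular transporter gene Slc17a8 (1.23 against 1.44 FPKM). For receptor scaffold genes it was 0.12: 11 of 18 exceeded the median of all genes and 1 was 1.2-fold or more higher. That gene was Dlg2, which encodes the scaffold PSD-93 (31.2 against 25.3 FPKM), followed by Pick1 (9.86 against 8.09 FPKM). The lowest were Dlgap4 (12.9 against 14.1 FPKM) and Homer1 (20.003 against 20.5 FPKM). For other genes of AMPA and NMDA receptor complexes it was 0.13: 12 of 22 exceeded the median of all genes, 2 were 1.2-fold or more higher and 1 was 1.2-fold or more lower. The cerebellin gene Cbln1 was at 2.80 against 1.82 FPKM and the pentraxin receptor gene Nptxr at 168 against 135 FPKM, while Shisa8, which passed the floor through the control library only and so had to be lower, was at 0.902 against 1.32 FPKM and Cbln2 at 3.62 against 4.28 FPKM.

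Markers of hippocampal cell types mostly passed the floor and also differed between the libraries. In bulk tissue, fewer cells of a type and less RNA per cell cannot be told apart. Pan-neuronal markers summed to 1854 FPKM in the treated and 1613 FPKM in the control library, with a median log2 ratio of 0.20 and 7 of 9 above the median of all genes (Map2 151 against 111 FPKM, Nefm 31.0 against 29.8 FPKM). The members' median of 0.14 was below this, and 13 of 34 members exceeded the pan-neuronal median. The pan-neuronal marker Eno2 (0.0865 against 0.0817 FPKM) and the pyramidal cell marker Iyd (0.0579 against 0.0936 FPKM) were under the floor in both libraries. Whether such low values, also of members, reflect low expression or reads not assigned to the symbol was not tested. The median of dentate granule cell markers was 0.21, 6 of 9 lay above the median of all genes, and their summed levels were 169 and 148 FPKM. Of these, Sema5a was at 17.5 against 13.2 FPKM and C1ql2 at 39.8 against 39.6 FPKM, and Dsp, Tdo2 and Lct were under 1 FPKM in both. For astrocyte markers the median was 0.19, 7 of 10 lay above the median of all genes, and the sums were 1599.9 and 1387 FPKM. Pyramidal cell markers of CA1 and CA3 had a median of 0.06 (5 of 12; sums 513 and 467 FPKM; Grp 12.1 against 8.25 FPKM, Pou3f1 9.23 against 11.8 FPKM) and interneuron markers of 0.06 (4 of 9; sums 337 and 314 FPKM; Gad2 36.2 against 30.2 FPKM), with Npy listed at 0 in both libraries. Oligodendrocyte and precursor markers had a median of -0.13 (2 of 10; sums 1645 and 1889 FPKM) and microglia markers of 0.11 (6 of 10; sums 161 and 164 FPKM). Markers of neighbouring regions had a median of 0.07 (4 of 9; sums 57.3 and 58.6 FPKM). The part of these shifts in the values of Grm2, Cacng4, Grm3 and the other members was not tested.

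**Figure D4:**
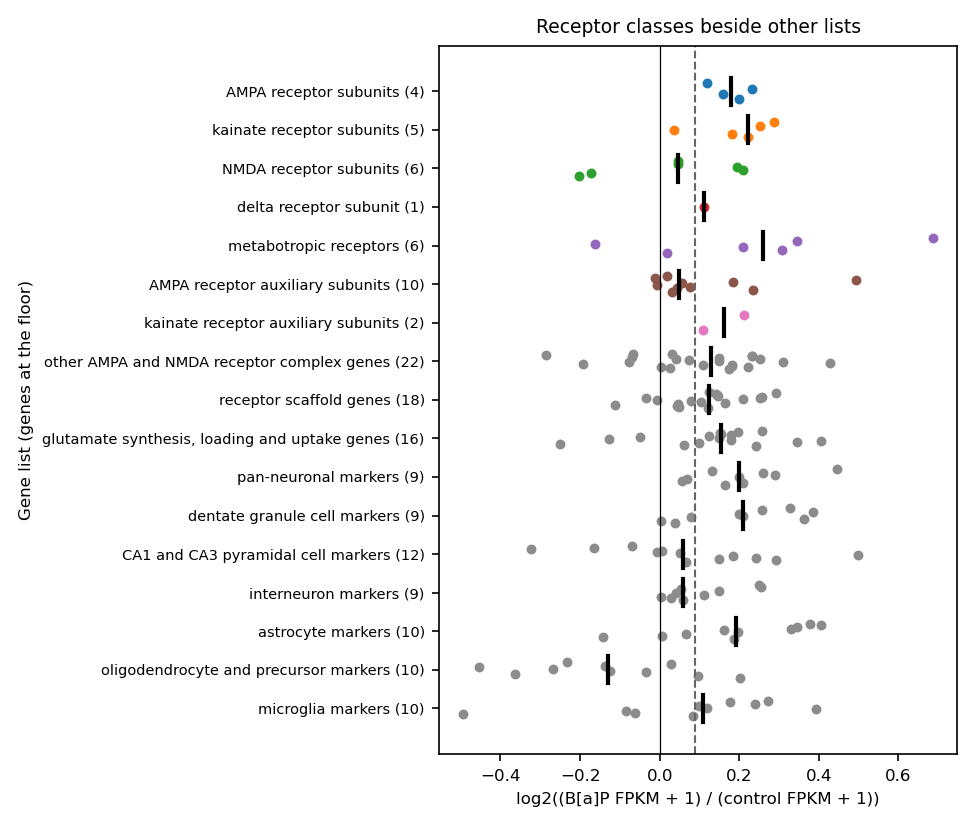
Log2 ratio of each gene at the floor for the receptor classes (coloured) and for other lists (grey), with the number of genes in brackets; the black bars are list medians, the solid line is 0 and the dashed line the median of all genes. Class medians were 0.26 for metabotropic, 0.22 for kainate and 0.18 for AMPA receptor genes. They were 0.16 for kainate auxiliary, 0.11 for delta (1 gene) and 0.05 each for NMDA and AMPA auxiliary genes. Marker medians were 0.21 for dentate granule cell, 0.20 for pan-neuronal, 0.19 for astrocyte and 0.11 for microglia markers. They were 0.06 each for pyramidal cell and interneuron markers and -0.13 for oligodendrocyte and precursor markers.

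Choroid plexus markers summed to 65.6 FPKM in the treated and 3426 FPKM in the control library, with Ttr at 60.5 and 3300.2 FPKM. Its 9 genes at the floor were at least 2-fold lower, but Kl, Aqp1, Cldn2, Tmem72, Mfrp and Kcnj13 had passed through the control library only, so their direction was fixed by the floor. Endothelial, mural and meningeal markers summed to 103 and 129 FPKM; their median was -0.11, and 0 of 10 lay above the median of all genes. Slc13a4 (2.43 against 11.3 FPKM) and Igf2 (3.37 against 13.8 FPKM) were the lowest of that list, while Rgs5 (18.9 against 18.4 FPKM) and Acta2 (2.60 against 2.46 FPKM) were the highest. The part of these differences in the members' values was not tested. From the steps of low values, the control library was 1.06 times as deep as the treated one, and the total number of reads is not given in the sources used here, so no counting interval accompanies these FPKM values.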

How the data were processed

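RNA-seq libraries of hippocampus, 1 from B[a]P and 1 from corn oil control rats, were grouped by their titles. The deposited mRNA tables give 1 value per symbol and library, taken as FPKM as made by the authors: no label states the unit, and it was inferred from the values. Of 3143 symbols above 0 and under 0.05 FPKM in both libraries, 80.9% had ratios that lay, within 0.001 on the natural log scale, on a fixed constant multiplied by quotients of whole numbers from 1 to 6. Named in the submitters' processing notes are bcl2fastq and the builds rn6 and rn5, without a role; the aligner, counting tool and annotation are not given in the sources used here. Unequal effective lengths or reads shared between genes could shift FPKM values.

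Log2 ratios were computed as log2(FPKM + 1), which understates the ratio of low genes, over genes that reached 1 FPKM in either library. Ratios printed in words as times higher are without the pseudocount. Every member at the floor is named, and the others are given to account for all 36. Of the other lists, named genes at the floor come from the 2 highest and 2 lowest log2 ratios, and not every list has genes named. Slc1a2, Slc1a3, Slc17a6, Nptx1 and C1ql2 each stand in more than a single list, so the list medians are not independent. Named besides are some genes under the floor and the choroid plexus genes that passed it through the control library only. The members and lists were chosen with earlier results of these data known, and the bands of like level were set after the data were seen. Functions were tested on simulated shifts. Alternatives were a pseudocount of 0.1 FPKM, a floor of 5 FPKM or none, median and upper quartile scaling, the lncRNA table and centring on pan-neuronal markers. Promoter windows and gene names came from RefSeq (GRCr8). The 4 RRBS and miRNA-seq libraries were not analysed here: RRBS positions could not be placed at genes without an annotation of their build. Python 3.11.15, numpy 2.4.6, pandas 2.3.3 and matplotlib 3.10.9 were used.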

Additional observations from a re-analysis of the deposited data

How the results depend on the processing

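No paired analysis was possible because each condition has 1 library, and for the same reason no replicate could be left out. The number of members above the median of all genes was 20 of 34 with a pseudocount of 0.1 FPKM, 18 of 25 with a floor of 5 FPKM and 30 of 36 with no floor; it was 20 under both scalings, which move members and all genes alike and so cannot test it. It was 13 when values were read against the pan-neuronal markers, an alternative chosen after seeing the data, with a members' median of -0.06. The members' median was 0.15 with a pseudocount of 0.1 FPKM, 0.0534 with median centring, 0.0563 with upper quartile scaling, 0.19 with a floor of 5 FPKM (25 members) and 0.12 with no floor (36 members). The number at least 1.2-fold higher was 8 and the number at least 1.2-fold lower 2 with a pseudocount of 0.1 FPKM. The added genes were Grik2, Cacng5 and Shisa9 (higher) and Grin3b and Grm4 (lower). The whole table widened as well. With this pseudocount 13.9% of the 13261 genes passed that fold upward and 5.31% downward, where a pseudocount of 1 FPKM gave 8.40% and 3.67%. Members past that fold upward were 2, Grm2 and Cacng4, with median centring and 2 with upper quartile scaling. Grm3 missed 1.2-fold narrowly at 0.26 under both scalings. Median centring also turned the split of all genes past 1.2-fold of 1114 higher against 487 lower into 510 against 751, and upper quartile scaling into 516 against 740. With no floor the median of all genes was 0.0050 because undetected genes enter, and then 4 NMDA subunits and 8 AMPA receptor auxiliary subunits lay above it. Under the 2 scalings 9 members changed sign, those whose log2 ratio lay between 0 and the median of all genes. A pseudocount or a floor cannot change a sign. Each symbol stands on 1 line of the mRNA table, so the choice between lines did not arise. Low levels limit Grm6, Grin2d, Grm4 and Grin3b most, and the absence of read totals and replicates limits every value.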

Other observations

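The lncRNA table also lists 2 of the members, at lower values. The reason for the lower values was not tested. Neto1 was at 9.44 FPKM in the treated and 8.45 FPKM in the control library there, 1.12 times higher against 1.17 times in the mRNA table. Grm6 was at 0.119 and 0.0981 FPKM, 1.21 times higher against 1.43 times. Values of the lncRNA table were 0.482 and 0.504 of those of the mRNA table for Neto1, and 0.309 and 0.365 for Grm6, treated library first.

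In the RefSeq annotation of GRCr8, 27 of the 36 members overlap the span of another gene on either strand. This matters where reads were counted without strand. The share over all genes was not computed, so whether 27 of 36 is high is not known. Grm2, with the widest difference, overlaps 0 other genes. Cacng4 overlaps 3 uncharacterised loci, Grm3 overlaps Elapor2, Grin3b overlaps Tmem259 and Grin2d overlaps Grwd1 and 1 uncharacterised locus. Whether reads of these neighbours entered the members' values was not tested.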
